A study of Mus musculus with 13 samples.

Results

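Cadherins are cell-surface proteins that hold neighbouring cells together through calcium-dependent contacts, and 42 genes of this superfamily, of 41388 genes in all, are described here in Ret-EGFP cells isolated from mouse dorsal root ganglia (DRG). They were chosen by symbol among protein-coding genes: 21 cadherins (Cdh and a number), 11 protocadherins that stand outside the protocadherin gene clusters (Pcdh and a number), the 3 calsyntenins (Clstn1 to Clstn3), the 3 Celsr genes and the 4 Fat genes. The choice was by name, though earlier results of these data were known when it was made. Ganglia came from C57BL/6 mice 3 months old whose Ret-expressing cells carry enhanced green fluorescent protein (EGFP), and cells were sorted by that fluorescence. Ret is the signalling receptor for GDNF and related neurotrophic factors. The series text describes heterozygotes with EGFP knocked in at Ret, while the sample labels name the allele Tg(Ret-EGFP)SJ, and all groups share it. Unsorted, EGFP-negative and non-carrier cells were not analysed here. Ganglia of the L6 and S1 levels (L6S1) were kept separate from those of L3, L4 and L5 (L345), as were the sexes. Male L6S1 has 4 libraries (replicates A, D, E and F), and the other 3 groups, male L345, female L345 and female L6S1, have 3 each (A, B and C), with 2 to 9 mice in a pool. The labels do not say whether a mouse gave ganglia to both levels.

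Classical cadherins bind the same or related cadherins on the next cell and tie to actin through catenins; type I members such as E-cadherin give strong adhesion, and type II members are expressed in combinations that mark subsets of neurons. Non-clustered protocadherins adhere more weakly, and several of them recruit the WAVE actin-regulating complex. Calsyntenins are transmembrane proteins of synapses and of kinesin-driven vesicles, Celsr proteins are the core cadherins of planar cell polarity, and Fat proteins are giant cadherins of tissue polarity and growth. In sensory ganglia, cadherins are known from neuron subtype identity, from contacts between neurons and satellite glia and from central target choice.

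Chromosome 14 carries 4 protocadherins in a row, and their upstream sequences are shown because they set 2 expressed genes, Pcdh17 and Pcdh9, beside 2 near-silent neighbours, Pcdh8 and Pcdh20. Pcdh8 (ENSMUSG00000036422, chromosome 14, 79766772 to 79771312, minus strand) lies 4672250 bases from Pcdh17, with 1 protein-coding gene between. Pcdh17 (ENSMUSG00000035566, chromosome 14, 84443563 to 84537060, plus strand) and Pcdh20 (ENSMUSG00000050505, chromosome 14, 88464747 to 88471396, minus strand) are 3927686 bases apart, with 2 protein-coding genes between them. Pcdh9 (ENSMUSG00000055421, chromosome 14, 93015512 to 93888732, minus strand) lies 4544115 bases further on, with 0 protein-coding genes between, and its RefSeq start lies beyond the end of the deposited gene model, in a longer GENCODE transcript. The RefSeq start of Pcdh20 lies outside the annotated transcripts used here, so its window may not be at the start in use. The 250 bases before each start are given 5′ to 3′ on the gene's strand, from RefSeq on GRCm38.p6, with each CG dinucleotide in capitals.

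Pcdh8, chr14:79771313-79771562, minus strand: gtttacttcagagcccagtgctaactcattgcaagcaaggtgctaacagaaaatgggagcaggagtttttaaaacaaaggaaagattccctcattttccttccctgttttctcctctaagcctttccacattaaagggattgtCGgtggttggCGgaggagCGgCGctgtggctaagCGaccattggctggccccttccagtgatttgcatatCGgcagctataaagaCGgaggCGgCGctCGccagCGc

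Pcdh17, chr14:84443313-84443562, plus strand: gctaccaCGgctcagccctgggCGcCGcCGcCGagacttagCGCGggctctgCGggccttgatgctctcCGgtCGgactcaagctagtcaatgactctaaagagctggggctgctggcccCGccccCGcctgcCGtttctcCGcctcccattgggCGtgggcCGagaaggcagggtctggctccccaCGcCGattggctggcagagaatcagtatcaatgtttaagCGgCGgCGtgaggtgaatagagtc

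Pcdh20, chr14:88471397-88471646, minus strand: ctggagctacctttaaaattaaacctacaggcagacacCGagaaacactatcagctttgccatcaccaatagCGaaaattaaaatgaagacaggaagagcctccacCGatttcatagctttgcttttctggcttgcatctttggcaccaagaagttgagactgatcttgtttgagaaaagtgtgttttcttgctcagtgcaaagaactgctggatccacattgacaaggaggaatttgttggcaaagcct

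Pcdh9, chr14:93890680-93890929, minus strand: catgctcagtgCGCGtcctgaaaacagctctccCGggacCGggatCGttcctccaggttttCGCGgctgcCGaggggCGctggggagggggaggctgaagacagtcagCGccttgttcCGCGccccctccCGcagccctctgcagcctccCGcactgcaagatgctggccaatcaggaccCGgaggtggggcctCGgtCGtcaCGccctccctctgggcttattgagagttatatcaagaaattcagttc

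These stretches held 11 CG in Pcdh8, 21 in Pcdh17, 3 in Pcdh20 and 18 in Pcdh9, where the median over the 27025 genes of the table was 6. Among all of them, 16.1% held at least as many CG as Pcdh17, 21.6% as Pcdh9, 36.0% as Pcdh8 and 70.4% as Pcdh20. In the libraries, Pcdh8 reached 69 counts and Pcdh20 23 over all 13, against 6472 for Pcdh17 and 7506 for Pcdh9. Of the 42 genes, 30 had an upstream sequence in the table. The median was 12 CG in the 24 of these expressed well enough to be tested (0 to 38) and 8 in the 6 that were not (3 to 30), so the ranges overlapped. Clstn1 held the most, 38, and Cdh26 held 0. The listed start lies outside the annotated transcripts for 6 of the 30: Cdh12, Cdh26, Celsr2, Celsr3, Fat3 and Pcdh20. The motif TATAAA, searched on both strands, was present in Pcdh15 and Pcdh8, and in 12.98% of all upstream sequences. The count of CG is a description of these windows; methylation was not measured.

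Total counts ran from 13030096 to 27011995 per library, and the limit set by 3 counts was 0.111 to 0.230 CPM, the depth-scaled count. To obtain CPM, each count was divided by the product of library total and TMM scaling factor, and a level per kilobase is this CPM over the gene's exon length in kilobases. Male L6S1 D and E were unlike the remaining 11 libraries. On the leading principal component of all genes they lay at 4.84 and 7.38 SDs of those 11 from their mean, and their scaling factors were 0.925 and 0.796, against 1.01 to 1.05 elsewhere. Many results that rest on them are therefore also given without them. For males against females this is done for the members as a set and not for single genes. Transcripts of Xist and of 4 Y-linked genes matched the sex in every label. Ret was present in every library at 87.2 CPM or more, and 8 sensory neuron markers, Ret among them, summed to 9475 to 16373 CPM. The sort was not free of other cells: 10 markers of satellite glia and Schwann cells summed to 3158 to 9601 CPM and 7 immune markers to 2.25 to 11.1 CPM. In bulk libraries, fewer cells of a type and less RNA per cell cannot be told apart.

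The most abundant member was Cdh1, which encodes E-cadherin, the type I cadherin of epithelia and of a subset of unmyelinated sensory neurons. Its level was 58.7 CPM per kilobase as the mean of the 4 group means, above 95.8% of the 26901 genes with a count. Epithelial markers fixed for the check (Epcam, Krt8, Krt18, Krt19 and Cldn4) summed to at most 4.15 CPM in any library. Next in the order of level per kilobase came Clstn1 at 21.5, Cdh11 at 14.9, Pcdh9 at 7.92, Clstn3 at 7.13 and Cdh2, which encodes N-cadherin, at 3.21. Below these stood Cdh15 at 2.86, Pcdh17 at 2.53, Cdh10 at 2.35 and Cdh6 at 2.34 CPM per kilobase. No 2 neighbours in this order had ranges apart over the 13 libraries, although Clstn1 was above Cdh11 within 13 of 13 libraries and Cdh1 above Clstn1 within 11 of 13. In all, 17 members were above 1 CPM per kilobase.

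**Figure D1:**
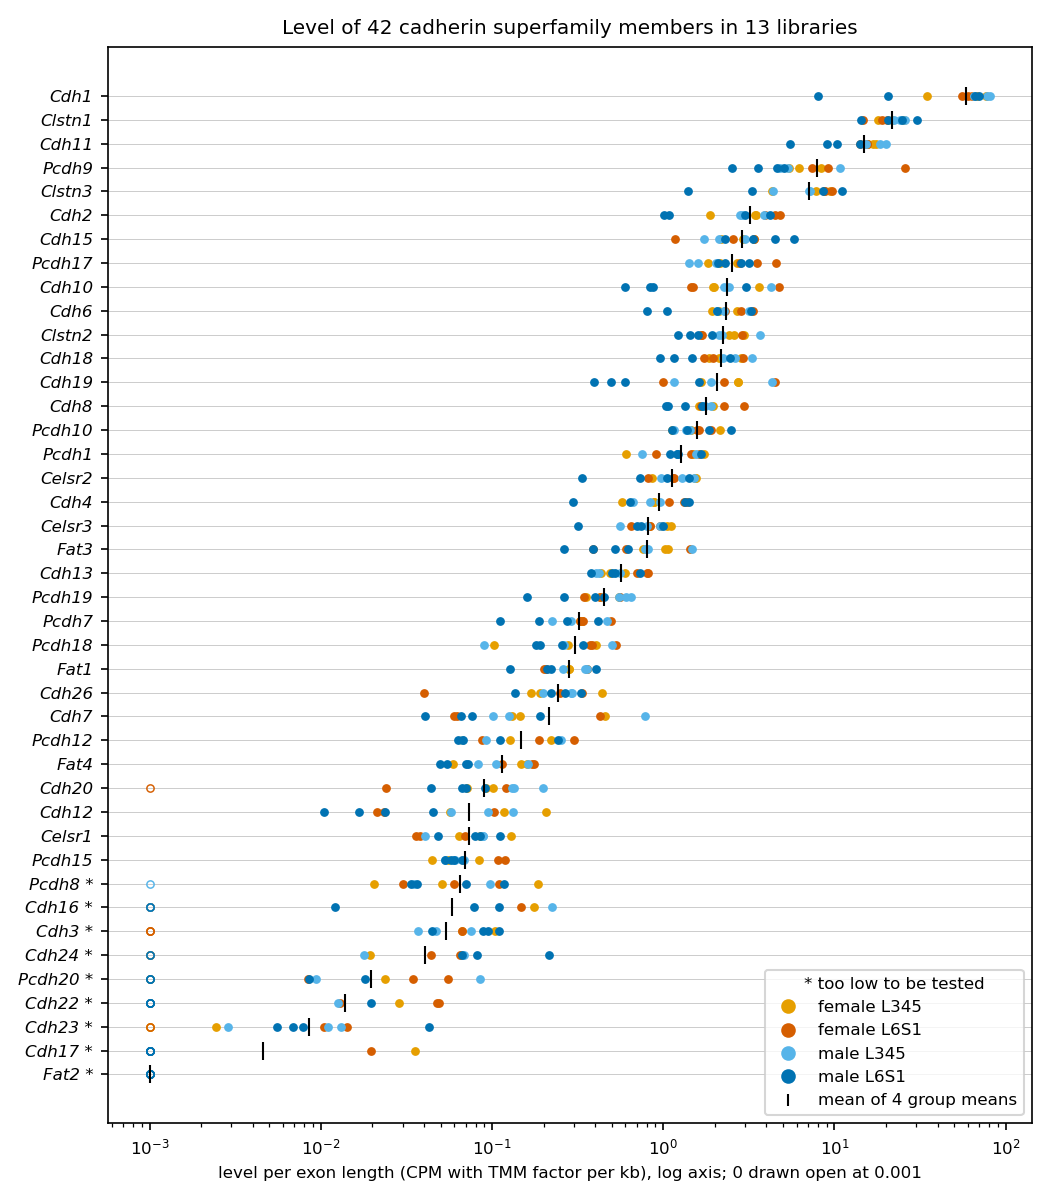
Level of the 42 members in CPM per kilobase of exon on a log axis, with a coloured point for each library by group, a vertical bar for the mean of the 4 group means, and open circles at the left edge for libraries with no count. Cdh1 leads at 58.7, and Fat2 has no count in any library; asterisks mark the 9 members too scarce to be tested.

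By class, the 5 type I classical cadherins held 46.5% of the summed level per kilobase of all 42 genes and the 3 calsyntenins 21.8%. The 11 type II classical cadherins held 18.4% and the 11 protocadherins 10.4%. Celsr genes held 1.42%, Fat genes 0.850% and the 5 atypical cadherins 0.623%. Of the 42, 33 passed the low-count filter and were tested with 15406 genes in all. Pcdh8, Pcdh20, Cdh3, Cdh16, Cdh17, Cdh22, Cdh23, Cdh24 and Fat2 did not. Fat2, a giant cadherin known from cerebellar granule cells, had 0 counts in all 13 libraries, which allows at most 0.111 to 0.230 CPM in any one of them. Cdh3, which encodes P-cadherin and lies 46442 bases from Cdh1 on chromosome 8, had 62 counts over all libraries against 71464 for Cdh1. Cdh23, the hair-cell tip-link cadherin, had 44 counts and its tip-link partner Pcdh15, which was tested, had 335. Cdh24 had 32 counts and shares 10.4% of its exon bases with a gene on the other strand, so reads in that stretch could belong to either.

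No member passed an adjusted p of 0.05 in any of the 5 comparisons made, which used edgeR's quasi-likelihood test with Benjamini-Hochberg adjustment over all 15406 genes. In the same fits, the share of all genes that passed was 0.448% for spinal level averaged over both sexes, 0.0195% for level in females, 0.221% for level in males, 0% for the difference between the sexes in that effect, and 0.0779% for males against females. At an unadjusted p under 0.05, 5 of 33 members were reached for the average (8.39% of all genes), 2 in females (2.25%), 11 in males (25.3%), 4 for the difference between the sexes (11.7%) and 4 for sex (6.1%). DESeq2 called 2 members, both in males (6.53% of all genes), and limma voom called 0 in every comparison. The values below are therefore descriptions of size and spread, and a p that misses the threshold does not show that levels were equal.

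In females, 2 protocadherins of chromosome 14 had the smallest p for spinal level, both on the higher side at L6S1. Pcdh17 encodes a protocadherin known to recruit the WAVE complex at axon contacts, and was at 25.7, 20.3 and 17.3 CPM in female L345 and 43.1, 33.4 and 26.8 in female L6S1. All 3 L6S1 libraries lay above all 3 L345 libraries. The log2 fold change was 0.71 (adjusted p = 1.00, SE 0.28), which is 1.64-fold, and with the replicate letter as a block it was 0.70 with an adjusted p of 0.0438, the only member called there (0.623% of all genes). Pcdh9, whose product is an adhesion protein enriched in the nervous system, was at 30.9, 23.1 and 20.1 CPM in female L345 and 96.2, 34.0 and 27.3 in female L6S1. Replicate A of L6S1 was far above the others, and the log2 fold change was 1.09 (adjusted p = 1.00, SE 0.45). Cdh13 encodes T-cadherin, which lacks a transmembrane segment, and was at 4.83, 6.64 and 5.46 CPM in female L345 and 7.80, 9.02 and 8.92 in female L6S1. Its groups did not overlap, with a log2 fold change of 0.60 (adjusted p = 1.00, SE 0.29).

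On the lower side in females stood Cdh12 and Celsr1, both scarce. Cdh12, a type II cadherin of brain, was at 0.318, 1.17 and 0.657 CPM in female L345 and 0.132, 0.120 and 0.576 in female L6S1, with overlapping groups and a log2 fold change of -1.33 (adjusted p = 1.00, SE 0.70). Celsr1, a planar polarity cadherin, was at 1.43, 0.709 and 0.945 CPM in female L345 and 0.397, 0.421 and 0.768 in female L6S1, again with overlap and a log2 fold change of -0.95 (adjusted p = 1.00, SE 0.50). Over all tested members, 4 had every L6S1 library above every L345 library (Cdh4, Cdh13, Pcdh17 and Cdh2), where 4.89% of all genes did. Cdh11 alone had them all below, where 3.86% of all genes did. The 9 tested protocadherins all had a log2 fold change above 0 in females, with a median of 0.44, and 8 of them did with the replicate letter as a block, whereas 49.9% of all tested genes were below 0, or 50.5% with the block. The median over the 33 members was 0.03 and that over all genes 0.00.

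**Figure D2:**
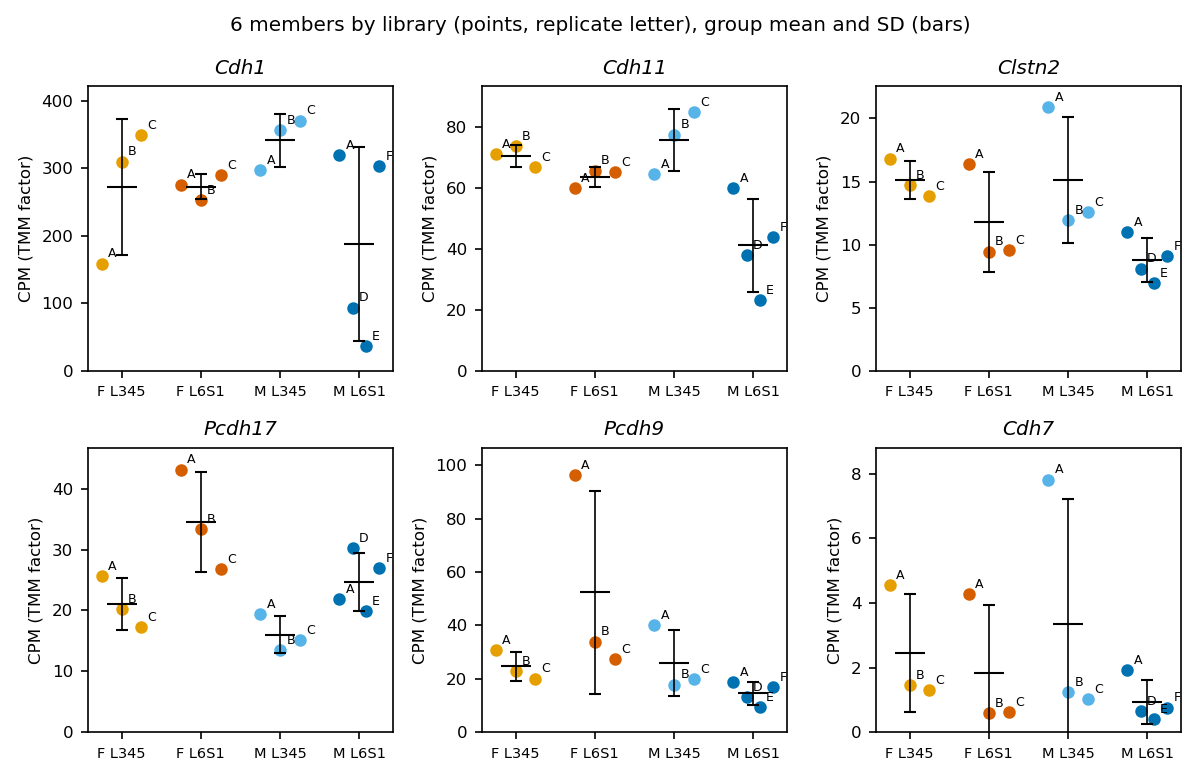
CPM of 6 members in each library by group, with points lettered by replicate, and the group mean and SD as bars that are cut off at 0. In each sex all L6S1 libraries of Pcdh17 lie above all L345 libraries, and Cdh1 is lowest in male L6S1 D and E.

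In males, most members and all tested type II classical cadherins were on the lower side at L6S1. Of 33 members 26 had a log2 fold change below 0, with a median of -0.46, against 47.9% of all tested genes and a median of 0.04. Without male L6S1 D and E, 23 of 34 members were below 0 (50.3% of all genes) and the median was -0.13. With the letter block, where male L6S1 rests on replicate A, 21 of 33 were (51.0%), with a median of -0.24. All 9 tested type II cadherins were below 0, with a median of -1.15. Of these 9, 6 had an unadjusted p under 0.05, which 25.3% of all genes reached in males, counting both sides. Without male L6S1 D and E 8 of the 9 were below 0, with a median of -0.60, and with the block 8 of 9, with a median of -0.68. In females 5 of these 9 were below 0, with a median of -0.04.

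Cdh11, a type II cadherin known from mesenchyme and brain, was the most abundant of that class (ENSMUSG00000031673, chromosome 8, 102632995 to 102785111). It was at 64.6, 77.4 and 84.7 CPM in male L345 and 59.7, 38.0, 23.1 and 43.7 in male L6S1. The 4 L6S1 libraries were all below the 3 L345 libraries, with the lowest values in D and E. Means were 75.6 ± 10.2 CPM (SD, n = 3) and 41.1 ± 15.1 CPM (SD, n = 4), and the log2 fold change was -0.88 (adjusted p = 0.137, SE 0.27). Without D and E it was -0.55 (adjusted p = 0.623), and DESeq2 called it at an adjusted p of 0.0445.

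Cdh19, a type II cadherin of Schwann cell precursors and of glia, was at 18.5, 4.93 and 8.18 CPM in male L345 and 6.94, 2.54, 2.11 and 1.68 in male L6S1. Replicate A was the only L6S1 library that reached the L345 range. The log2 fold change was -1.66 (adjusted p = 0.138, SE 0.56), or -1.29 without D and E (adjusted p = 0.623), and DESeq2 gave an adjusted p of 0.0468. Among 10 markers of satellite glia and Schwann cells, 0 were called in males, and 3 had an unadjusted p under 0.05 on the lower side and 1 on the higher. Their sum ran from 3929 to 4648 CPM in male L345 and from 3728 to 9601 CPM in male L6S1, where E was highest, and their part in the Cdh19 values was not tested.

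Fat3, a giant cadherin that shapes neuronal dendrites, was at 27.1, 14.3 and 14.9 CPM in male L345 and 11.5, 7.16, 9.59 and 4.85 in male L6S1. Groups did not overlap, and the log2 fold change was -1.18 (adjusted p = 0.139, SE 0.41); it was -1.20 without D and E (adjusted p = 0.623). Clstn2, a calsyntenin of synapses, was at 20.9, 12.0 and 12.6 CPM in male L345 and 10.99, 8.11, 6.96 and 9.07 in male L6S1, also without overlap. Its log2 fold change was -0.78 (adjusted p = 0.145, SE 0.29). Pcdh19, an X-linked protocadherin that binds together with N-cadherin, was at 6.25, 5.68 and 6.67 CPM in male L345 and 2.72, 4.67, 1.64 and 4.12 in male L6S1. Every L6S1 library lay below the L345 libraries, with a log2 fold change of -0.91 (adjusted p = 0.147, SE 0.34). Without D and E, Clstn2 was at -0.60 and Pcdh19 at -0.86.

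Pcdh17 was again on the higher side in males, at 19.4, 13.5 and 15.2 CPM in male L345 and 21.8, 30.2, 19.9 and 27.0 in male L6S1. All 4 L6S1 libraries lay above the L345 libraries, and the log2 fold change was 0.63 (adjusted p = 0.171, SE 0.26), or 0.60 without D and E. It was the only member with that separation (9.21% of all genes). On the lower side, 8 members were separated (Cdh20, Pcdh19, Fat4, Cdh8, Cdh11, Fat3, Clstn2 and Cdh12), where 9.49% of all genes were. Leaving out male L6S1 A gave 6 calls, all lower (Cdh10, Cdh11, Cdh18, Cdh19, Clstn2 and Fat3). Of all genes, 20.5% were then called on either side and 9.9% on the lower side. Leaving out D and E instead gave 0 calls among members.

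**Figure D3:**
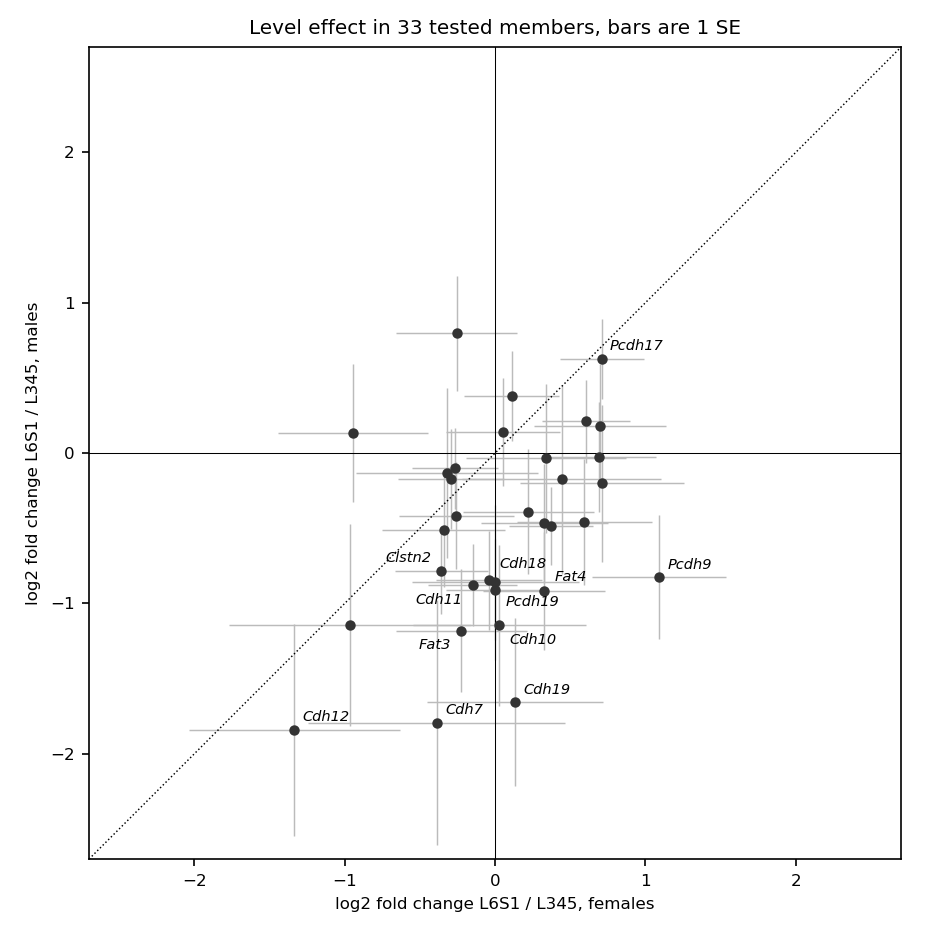
Log2 fold change of L6S1 over L345 in females (x axis) and in males (y axis) for the 33 tested members, with bars of 1 SE and names where p was under 0.05 in either sex. Pcdh17 lies above 0 on both axes and Pcdh9 has opposite signs.

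The difference of the spinal level effect between the sexes was tested as males minus females, and Pcdh9 had the smallest p. Its female values are given above, and it was at 40.0, 17.8 and 20.0 CPM in male L345 and 18.8, 13.2, 9.36 and 17.1 in male L6S1. The difference was -1.91 (adjusted p = 0.409, SE 0.61), with an interval of 2 SE from -3.13 to -0.69. With the replicate letter as a block, where male L6S1 rests on replicate A, it was -2.003. Female L6S1 A, at 96.2 CPM, was the highest library. Cdh8, a type II cadherin of neurons, followed at -0.86 (adjusted p = 0.409, SE 0.38). Its values were 13.4, 12.5 and 15.2 CPM in female L345, 22.8, 12.8 and 17.6 in female L6S1, 13.2, 14.7 and 13.6 in male L345 and 12.95, 10.3, 8.25 and 7.98 in male L6S1, highest in female L6S1 A and lowest in male L6S1 E and F. Fat4, which pairs with the Dachsous cadherins, had a difference of -1.25 (adjusted p = 0.409, SE 0.56). It was at 1.01, 2.74 and 2.55 CPM in female L345, 2.95, 3.01 and 1.97 in female L6S1, 1.41, 1.82 and 2.77 in male L345 and 1.25, 0.848, 0.936 and 1.20 in male L6S1, and 7.04% of its exon bases are shared with a gene on the other strand. Cdh19 had a difference of -1.79 (adjusted p = 0.409, SE 0.81). Cdh15, which encodes M-cadherin of muscle, had a difference above 0, at 1.05 (adjusted p = 0.410, SE 0.56). Its levels were 6.15, 8.26 and 9.69 CPM in female L345, 3.31, 7.28 and 9.64 in female L6S1, 4.91, 8.57 and 5.99 in male L345 and 6.54, 12.7, 16.4 and 9.55 in male L6S1, highest in male L6S1 D and E, where the sum of 5 skeletal muscle markers was also highest, at 11.4 and 8.60 CPM against 1.80 to 4.77 in the other 11. Acta1 made most of that sum, at 10.9 CPM in D and 7.37 in E. Ckm, Myh1, Myh4 and Tnnt3 were each at 0.994 CPM or below in both. The part of those markers in the Cdh15 values was not tested. Of the 33 members, 26 had a difference below 0, where 47.7% of all genes did. It was 23 of 34 without male L6S1 D and E (48.3%) and 21 of 33 with the block (50.3% of all genes). Over all genes this difference also varied with exon length, as given below. Without male L6S1 D and E the difference was -1.62 for Pcdh9, -0.78 for Cdh8, -1.05 for Fat4, -1.42 for Cdh19 and 0.56 for Cdh15, each with an adjusted p of 0.841.

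Averaged over the sexes, Pcdh17 had the smallest p for spinal level among the members. Its log2 fold change was 0.67 (adjusted p = 0.246, SE 0.19), a 1.59-fold higher level at L6S1, with 5 of 7 L6S1 libraries above every L345 library. It was 0.65 without male L6S1 D and E (adjusted p = 0.240) and 0.42 with the letter block (adjusted p = 0.0750). Cdh12 had a log2 fold change of -1.59 (adjusted p = 0.329, SE 0.50), from 103 counts over all libraries; it was at 0.744, 0.326 and 0.535 CPM in male L345 and 0.134, 0.0942, 0.0585 and 0.255 in male L6S1. Clstn2 was next at -0.57 (adjusted p = 0.481, SE 0.21), with 16.8, 14.7 and 13.8 CPM in female L345 and 16.4, 9.44 and 9.55 in female L6S1. Cdh11 followed at -0.51 (adjusted p = 0.518, SE 0.20) and was at 71.0, 73.6 and 66.6 CPM in female L345 and 59.7, 65.6 and 65.1 in female L6S1. Fat3 was at -0.70 (adjusted p = 0.564, SE 0.30), with 19.7, 18.8 and 14.1 CPM in female L345 and 26.5, 11.2 and 7.20 in female L6S1. Without D and E the last 4 were at -1.36, -0.48, -0.35 and -0.72, with adjusted p from 0.499 to 0.685.

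With the replicate letter as a block, 4 members were called in this comparison, where 5.43% of all genes were. They were Cdh7 at -1.27 (adjusted p = 0.0325), Clstn3 at 0.64 (adjusted p = 0.0366), Clstn2 at -0.61 (adjusted p = 0.0436) and Cdh4 at 0.76 (adjusted p = 0.0475). Male L6S1 D, E and F carry letters that no other library has, so that in this fit male L6S1 rests on replicate A, and 4 residual degrees of freedom remain. With the letters as a block within each sex, a fit added after the data were seen, 0 members were called (0.584% of all genes). Cdh7 and Cdh4 are described because the block called them, a choice made after their values were seen. Cdh7, a type II cadherin of neural crest lineages, was at 4.56, 1.47 and 1.31 CPM in female L345, 4.28, 0.601 and 0.624 in female L6S1, 7.81, 1.26 and 1.02 in male L345 and 1.91, 0.660, 0.409 and 0.765 in male L6S1. Cdh4, which encodes R-cadherin, was at 4.14, 6.38 and 6.41 CPM in female L345, 9.57, 7.88 and 10.0 in female L6S1, 6.92, 6.10 and 4.82 in male L345 and 10.3, 4.62, 2.16 and 9.73 in male L6S1, and in females its groups did not overlap. Clstn3, a calsyntenin of synapses, was at 21.4, 38.7 and 46.7 CPM in female L345, 43.2, 44.0 and 48.1 in female L6S1, 21.7, 35.8 and 35.2 in male L345 and 42.6, 16.3, 6.96 and 54.8 in male L6S1; E and D had its lowest values.

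For sex, 28 of 33 members had a log2 fold change below 0 for males against females averaged over the levels, with a median of -0.27, against 48.6% and 0.01 over all genes. Without male L6S1 D and E it was 23 of 34, with a median of -0.09 (51.5% of all genes). With the letter block, where male L6S1 rests on replicate A, it was 19 of 33, with a median of -0.10 (51.0%). Over all genes the fold change for sex also varied with exon length, as given below. All 9 tested protocadherins were below 0, as were 8 of 9 without D and E and 7 of 9 with the block. Pcdh9 had the smallest p, at -0.89 (adjusted p = 0.665, SE 0.30), with 6 of 7 male libraries below every female library. The letter block gave -1.02 for Pcdh9 (adjusted p = 0.0195) and -0.67 for Pcdh17 (adjusted p = 0.0246), the only 2 members called there (2.4% of all genes). Fat4 was at -0.69 (adjusted p = 0.665, SE 0.28), Pcdh17 at -0.44 (adjusted p = 0.665, SE 0.19), Cdh8 at -0.42 (adjusted p = 0.665, SE 0.19) and Cdh19 at -0.85 (adjusted p = 0.665, SE 0.40). No member had all male libraries on 1 side of all female libraries, which 0.0779% of all genes had on the higher side and 0.0974% on the lower.

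The values of the other abundant members follow. Cdh1 (ENSMUSG00000000303, chromosome 8, 106603351 to 106670246) was at 159, 309.8 and 349 CPM in female L345, 276, 253 and 289.8 in female L6S1, 297, 357 and 370.5 in male L345 and 319, 93.7, 36.8 and 303 in male L6S1. Its group means were 273 ± 100.4, 273 ± 18.8, 341 ± 39.1 and 188 ± 144 CPM (SD, n = 3, 3, 3 and 4). In males the log2 fold change for level was -0.86 (adjusted p = 0.289, SE 0.52), and without D and E it was -0.14 (adjusted p = 0.837). Clstn1, a kinesin cargo adaptor of axons, was at 83.9, 100.5 and 118 CPM in female L345, 68.1, 94.9 and 88.8 in female L6S1, 103, 112 and 121 in male L345 and 95.2, 116, 66.8 and 141 in male L6S1. Its SDs were 8.83 to 31.4 CPM and its group means 83.9 to 112 CPM. The levels overlapped within each sex, while every male L345 library lay above every female L6S1 library. Cdh2 was at 15.2, 28.0 and 27.7 CPM in female L345, 38.6, 36.4 and 31.9 in female L6S1, 23.3, 31.3 and 22.5 in male L345 and 33.7, 8.76, 8.13 and 24.1 in male L6S1, with no overlap between the levels in females and with its lowest values in male L6S1 D and E. Cdh10, a type II cadherin of the nervous system, was at 36.2, 19.7 and 20.0 CPM in female L345, 47.8, 14.5 and 14.9 in female L6S1, 42.5, 24.2 and 22.8 in male L345 and 30.7, 8.44, 5.96 and 8.71 in male L6S1, highest in the A library of each group. Cdh6, a type II cadherin of neurons and kidney, was at 7.05, 5.57 and 5.09 CPM in female L345, 8.77, 7.46 and 6.00 in female L6S1, 8.33, 5.40 and 5.99 in male L345 and 8.55, 2.78, 2.11 and 5.43 in male L6S1, lowest in E and D.

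Libraries D and E of male L6S1 were the lowest for many members. In 12 of 33 tested members both lay below all other 11 libraries (Cdh1, Cdh2, Cdh6, Cdh10, Cdh11, Cdh12, Cdh18, Pcdh9, Clstn2, Clstn3, Celsr2 and Fat4), where 18.4% of all genes had that pattern. Cdh15 alone had both above, where 17.8% of all genes did. Over all tested genes, the difference of D and E from the median of the other 11 varied with exon length. On the log2(CPM + 1) scale, genes from 8000 bases upward had medians of -0.51 in D and -0.77 in E. Genes under 2000 bases had 0.52 and 0.76. Members from 8000 bases upward were at -0.25 and -0.62. From 4000 to 8000 bases, members were at -0.42 and -0.71 and all tested genes at -0.31 and -0.44. The markers of nonpeptidergic neurons (Mrgprd, P2rx3, Gfra2 and Lpar3) summed to 530.4 and 245 CPM in D and E against 645 to 1272 in the other 11. No gene of that list was called in males. Of the markers of other cells, 6 endothelial ones summed to 42.5 and 69.2 CPM in D and E against 14.9 to 33.6. The 7 immune markers summed to 7.16 and 11.1 CPM against 2.25 to 6.47. Emcn (20.9 and 40.9 CPM) and Lyz2 (4.62 and 8.13 CPM) were the largest parts of these sums. Fibroblast and glial sums were above the other 11 in E only. Mural (211 and 139 CPM) and red blood cell sums (7.63 and 8.25 CPM) lay within the range of the other 11. The part of exon length, of neuron type or of other cells in the lower cadherin values of D and E was not tested.

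**Figure D4:**
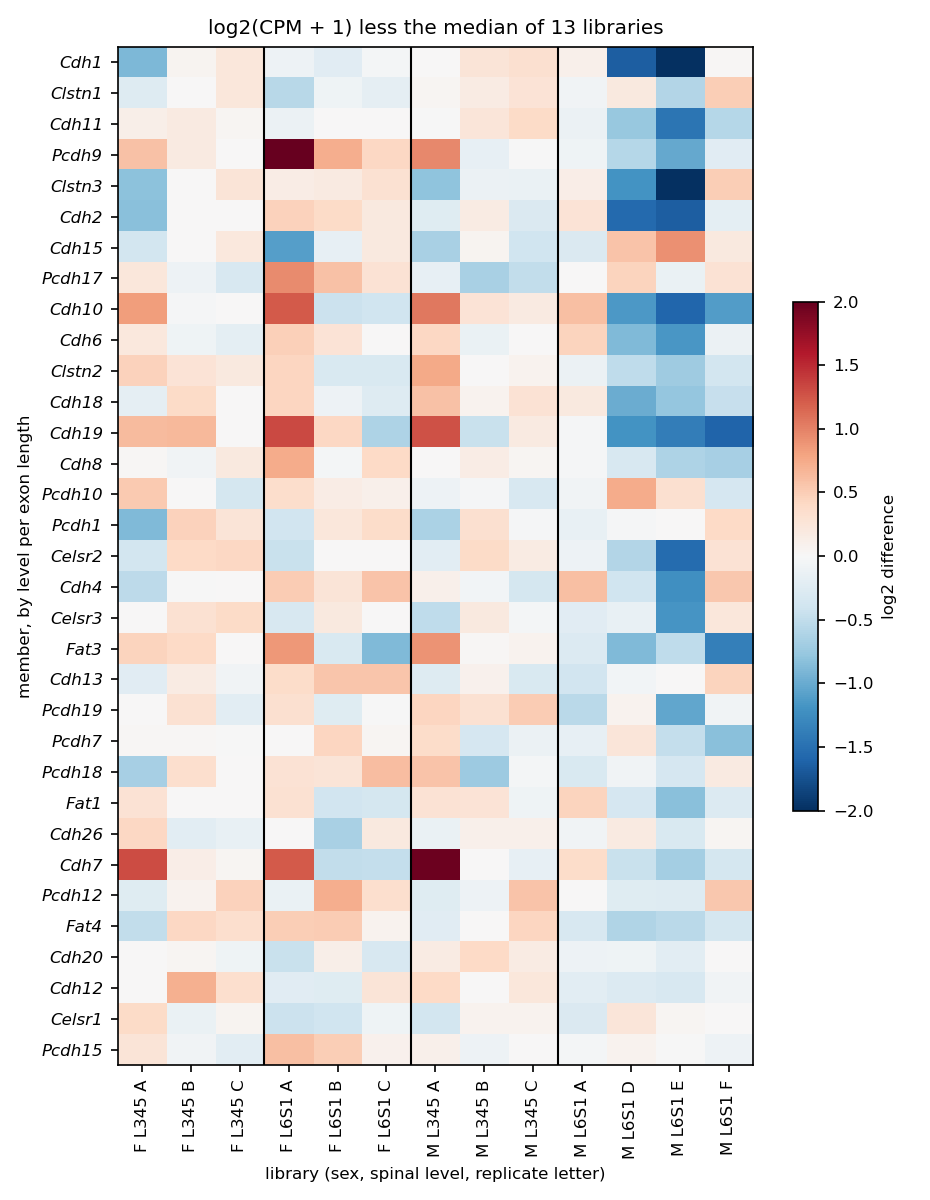
Difference of each library from the member's median over the 13 libraries on the log2(CPM + 1) scale, for the 33 tested members in order of level, with colours ending at 2 in either direction. Male L6S1 D and E are dark blue for Cdh1, Clstn3 and Cdh2 and red for Cdh15.

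The A libraries stood together for some members. In 7 members the A library was the highest of its group in all 4 groups (Cdh6, Cdh7, Cdh10, Pcdh9, Clstn2, Fat1 and Fat3), where 8.21% of all genes had that pattern, and in Cdh15 and Pcdh1 it was the lowest in all 4 (6.35%). For Cdh7 the A libraries were at 1.91 to 7.81 CPM and all others at 0.409 to 1.47 CPM. Of 4 mural cell markers, Rgs5 alone had that pattern, at 336 to 467 CPM in the A libraries and 119.7 to 257 in the others. Pdgfrb was instead lowest in A in the 3 groups of 3 libraries, at 5.57 to 8.85 CPM against 12.3 to 18.8, and Acta2 and Cspg4 were at 3.43 CPM or below throughout. The part of mural cells in these values was not tested.

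Members are long genes, and in males the level effect varied with exon length over all genes. The tested members had a median exon length of 7257 bases, against 3569.5 over all tested genes. In males the median log2 fold change was 0.64 for genes under 2000 bases, 0.16 from 2000 to 4000, -0.21 from 4000 to 8000 and -0.54 from 8000 upward. In the same order without D and E it was 0.09, 0.10, -0.06 and -0.32. The 14 members from 4000 to 8000 bases had a median of -0.63 and the 15 from 8000 upward -0.42, or -0.44 and -0.07 without D and E. In females the medians over all genes were -0.11, -0.01, 0.05 and 0.06. From the shortest class to the longest, the medians over all genes for males against females were 0.28, 0.06, -0.09 and -0.23. For the difference between the sexes in the level effect they were 0.77, 0.16, -0.26 and -0.61. Members from 4000 to 8000 bases and from 8000 upward had medians of -0.29 and -0.30 for sex. For the difference they had -0.62 and -0.39. The part of exon length in the lower values of members, in males or in these comparisons, was not tested.

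**Figure D5:**
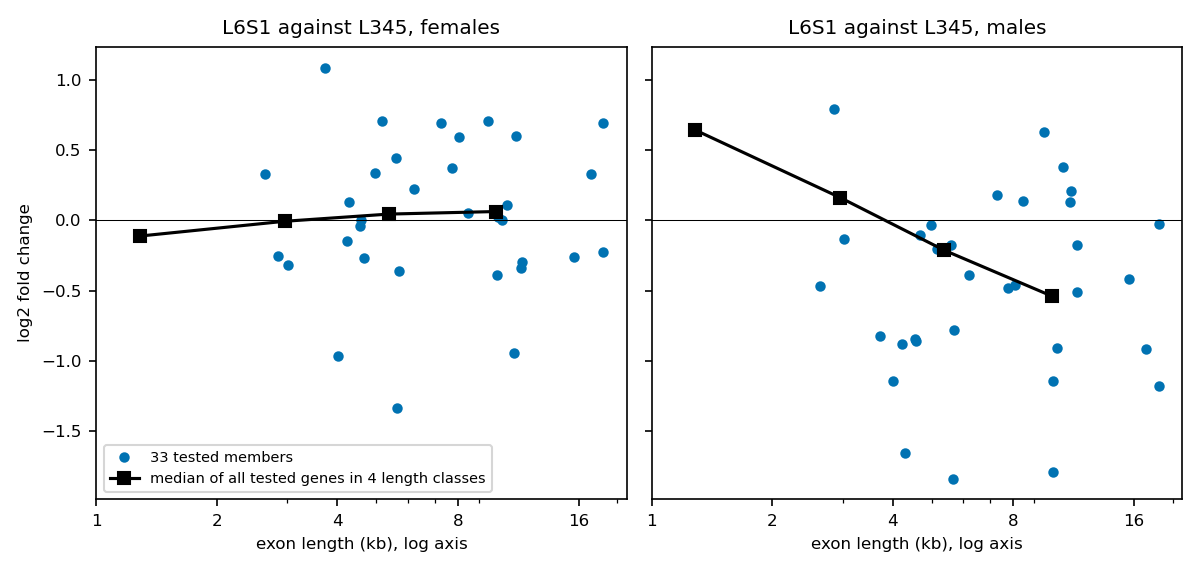
Log2 fold change of L6S1 over L345 against exon length in kilobases on a log axis, in females and males, with points for the 33 tested members and joined squares for the median of all tested genes in 4 length classes. In males the squares run from 0.64 in the shortest class to -0.54 in the longest, and in females from -0.11 to 0.06.

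Genes that work with cadherins were read from 6 lists of 57 genes, 50 of them tested, and 0 were called in any comparison. The 14 catenins and junction partners summed to 806 to 1028 CPM in the 11 libraries other than D and E, which were at 745 and 514. Among 13 planar polarity and Fat partners, 1 gene had an unadjusted p under 0.05 on each side in males. Of the 8 WAVE complex genes, Abi2 had a log2 fold change of -1.21 in males (SE 0.39, adjusted p = 0.137), or -0.69 without D and E (adjusted p = 0.623). Brk1, a small subunit, was at 0.86 (SE 0.32, adjusted p = 0.151), or 0.11 without D and E (adjusted p = 0.815). Its 634 and 671 CPM in D and E stood above the 206 to 306 CPM of the other 11 libraries. Of 6 genes for cadherin shedding, Adam10, the protease that releases cadherin ectodomains, had a log2 fold change of -1.19 in males (SE 0.32, adjusted p = 0.137), or -0.74 without D and E (adjusted p = 0.562). Of 8 tip-link partners 4 were tested, and Lhfpl5 was at 0.98 in males (SE 0.33, adjusted p = 0.139), or 0.16 without D and E (adjusted p = 0.716). It was at 135 and 161 CPM in D and E and at 45.3 to 65.0 in the other 11. The 8 calsyntenin partners, among them the kinesin light chains that bind Clstn1, had a median log2 fold change of -0.38 in males, or -0.08 without D and E, and 0.06 in females.

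The remaining tested members were at low or middle levels. Cdh18, a type II cadherin of brain, was at 8.43, 12.9 and 9.65 CPM in female L345, 13.4, 8.90 and 7.87 in female L6S1, 15.0, 10.2 and 12.0 in male L345 and 11.2, 4.34, 5.26 and 6.74 in male L6S1, with a male log2 fold change of -0.85 (adjusted p = 0.153, SE 0.33), or -0.47 without D and E. Pcdh10, which acts in axon growth, ran from 12.0 to 26.4 CPM, and Pcdh1 from 5.14 to 14.6. Celsr2 ran from 3.86 to 17.8 CPM and Celsr3 from 3.68 to 12.8; both act in axon guidance. Fat1 ran from 1.99 to 6.32 CPM. Pcdh7, Pcdh18, Pcdh12, Pcdh15, Cdh26 and Cdh20 stayed at 3.07 CPM or below in every library. Of these, Pcdh12 is known as a protocadherin of endothelium, whose 6 markers summed to 14.9 to 69.2 CPM.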

How the data were processed

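RNA of sorted Ret-EGFP cells was measured in 13 libraries. Per the labels' protocols, a SMARTer Ultra Low Input kit, which does not mark strand, amplified 10 ng each. The authors deposited for each gene a raw count, a CPM and an RPKM value. The deposited CPM equals the count over the library's total, and the deposited RPKM that value per kilobase. Only counts were tested. Builds GRCm38.p2 and mm10 and the tools featureCounts 1.4.5, Subread, Salmon and STAR 2.0.4b are listed, with no roles, per the submitters' processing notes. The handling of multiply mapped reads is not given in the sources used here. Coordinates and exon lengths are those of the deposited gene models, and GENCODE M21 on GRCm38 gave symbols: 40254 identifiers matched and 1134, with 0.109% of counts, did not. 2 names that the pattern covers and 1 marker list are not reported here.

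Counts were filtered with filterByExpr, scaled by TMM and tested in R 4.3.3 with edgeR 4.0.16 (quasi-likelihood, robust), with 1 mean per group over 13 libraries and Benjamini-Hochberg adjustment over 15406 genes. SE was derived by dividing the log2 fold change, without its sign, by the root of F. Alternatives were DESeq2 1.42.0, limma 3.58.1 voom, RLE factors, library totals alone, no filter, each library left out, male L6S1 D and E left out, and the replicate letter as a block. Same-letter libraries of directly compared groups deviated together (8 pairs, r of 0.101 to 0.520), which is where the pairing comes from. The labels do not state it. Between the 2 levels, unlike letters gave r of -0.556 to 0.252 in females. In males unlike letters gave -0.273 to 0.207, and the only same-letter pair, A with A, gave 0.101, within that range. P-values measure the spread between pools, and floors of 3 counts cover counting error only, since amplified reads are not independent molecules.

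Statistics are printed for members called and for the 5 members with the smallest p in each comparison, and library values also for the 10 with the highest level per kilobase. The members and lists were chosen with earlier results of these data known.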

Additional observations from a re-analysis of the deposited data

Results flagged for a closer look

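Among the 19 members whose library values were examined in male L6S1 (n = 4), replicate A stood far above the other 3 libraries in 2, with a gap beyond Dixon's 95% critical value. Cdh10 was at 30.7 CPM in A and at 5.96 to 8.71 CPM in D, E and F. Cdh19 was at 6.94 CPM in A and at 1.68 to 2.54 CPM in the others. Chance alone passes this limit in about 1 in 20 groups.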

How the results depend on the processing

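With no member called by the main design, counts of members changed in 4 of 5 comparisons. The replicate block called 4 members for level averaged over the sexes, 1 in females and 2 for sex, and 0 in males and for the difference between the sexes. In that fit male L6S1 rests on replicate A. DESeq2 called 2 in males. Leaving out 1 library at a time gave 0 to 6 members in males, the 6 without male L6S1 A, and 0 elsewhere. No called member appeared with voom, RLE factors, library totals alone, no filter or without D and E. Of 505 values of 13 named members under alternatives, 495 kept their direction and side of the threshold, 10 passed it and 0 reversed. Genes called overall moved widely: from 69 for the average to 837 with the block, 190 by DESeq2, 144 without the filter and 28 to 129 with 1 library left out; in males from 34 to 719, 904, 264 and 4 to 3133; in females from 3 to 96, 45, 34 and 0 to 11; for sex from 12 to 369, 25 and 19, with 10 to 14. The difference between the sexes moved from 0 to 31 with the block and 1 without the filter. Voom called 11 genes in females and 17 in males, and without D and E the counts were 23 in females, 19 in males and 7 for sex. Pool number, and counts under 3 in Cdh12 and Cdh20, limit precision.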
